A study of Arabidopsis thaliana with 4 samples.

Results

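The genes described here are the expansins and the xyloglucan endotransglucosylases/hydrolases (XTH genes) of Arabidopsis thaliana, the families that loosen and remodel the growing plant cell wall. Members were taken by locus identifier from a table of 32678 loci, which gave 51 genes: 27 expansins (19 EXPA, 4 EXPB and the 4 expansin-like genes EXLA1, EXLA2, EXLA3 and EXLB1) and 24 XTH genes between XTH4 and XTH33. RNA was sequenced from whole plants of 2 genotypes: WT, and 35S:TEM1, in which the transcription factor gene TEM1 is driven by the 35S promoter of cauliflower mosaic virus, a promoter active in most plant tissues. Each genotype had 2 samples, and each sample pooled 20 plants that were 10 days old, kept in LD at 22 °C and collected at time point ZT18. The labels do not say how many transgenic lines were used, and they name neither a batch nor separate growths; p-values therefore cover the spread between pools and nothing wider.

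Expansins are wall proteins that loosen the bonds between cellulose and matrix polymers without cutting them, and they act best at the acid pH that plasma membrane proton pumps create during growth. XTH enzymes cut a xyloglucan chain and rejoin the end to another chain, and some members hydrolyse the chain instead. Single members of both families are tied to single organs or cell types, such as root hairs, guard cells or the stem, so the balance between members is as much a part of their biology as the family total.

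Values are RPKM (reads per kilobase of gene length, normalized for library depth) as deposited, and differences are 35S:TEM1 minus WT on the log2(RPKM + 1) scale from limma, fitted over the 17746 genes with a mean RPKM of at least 1. That scale understates the change of genes with low RPKM. A gene was called higher or lower at a Benjamini-Hochberg adjusted p under 0.05 over all genes tested. TEM1 itself checked the labels: it was at 784.2 and 827.5 in the 35S:TEM1 samples against 16.25 and 30.26 in WT, 34.7-fold higher. Estimated depth was 20.18 to 30.43 M reads per sample, so that 3 reads in a gene of 1 kb equal an RPKM of 0.0986 to 0.149, a limit that covers counting error only. Over all genes tested, 25.7% were called, 18.3% higher and 7.37% lower, and the median difference was 0.12. Setting the samples to equal medians moved that median to -0.028.

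In the expansin family 11 genes rose and 3 fell in 35S:TEM1, 8 more were tested and not called, and 5 lay under the limit of mean RPKM 1. The share called higher was 50% of the 22 tested expansins, beside 18.3% of all genes tested, and the median difference was 0.64. The XTH family split evenly: 4 genes rose, 4 fell, 12 were not called and 4 lay under the limit, with a median difference of -0.12. The shares called were 20% higher and 20% lower of the 20 tested XTH genes, beside 18.3% and 7.37% of all genes tested. Among the falls, XTH17, XTH19 and XTH33 had 35S:TEM1 means under the limit (0.712, 0.745 and 0.312) and entered the test through WT. EXPA7, called higher, had a WT mean of 0.356 and entered through 35S:TEM1. The XTH median was -0.41 without 35S:TEM1 replicate 2, -0.030 without replicate 1 and -0.28 with equal sample medians. In that scaling the counts were 10 higher and 4 lower for the expansins and 3 higher and 5 lower for the XTH genes. Over all 17746 genes tested, the same scaling gave 1930 higher and 2431 lower. Both groups of samples stood apart without overlap for 15 of the tested expansins above WT and 4 below, and for 5 of the tested XTH genes above and 7 below; over all genes tested, 47.4% lay above and 20.7% below in this sense. Among the tested members, the difference of largest size was the fall of XTH17.

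**Figure D1:**
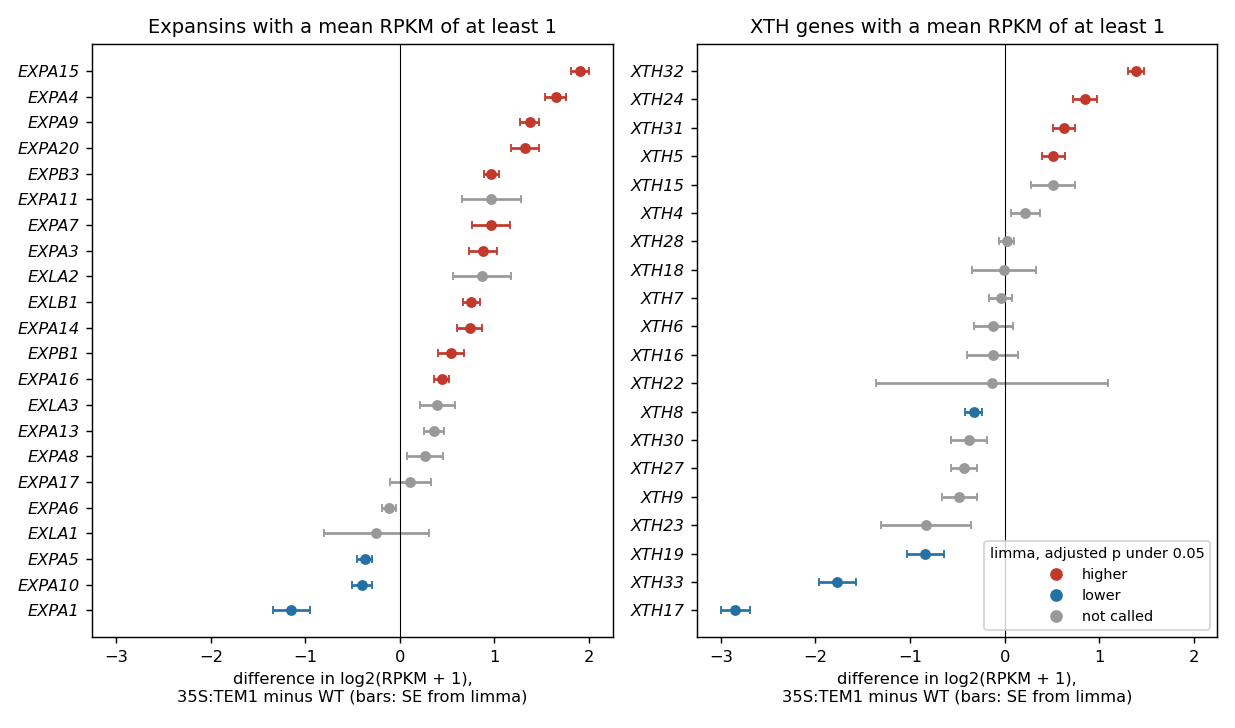
Difference in log2(RPKM + 1), 35S:TEM1 minus WT, of the 22 expansins (left) and 20 XTH genes (right) with a mean RPKM of at least 1; points are limma estimates, bars are standard errors, and colour marks the call. Expansin points run from -1.15 (EXPA1) to 1.90 (EXPA15) and lie mostly to the right of 0, XTH points run from -2.85 (XTH17) to 1.39 (XTH32), and the widest bar belongs to XTH22.

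The sequences shown first are those of the XTH genes at the ends of this range and of genes with a known control element. EXPA7 and EXPA18 act in root hairs and are known to carry the root hair-specific cis-element (RHE), a degenerate motif that marks promoters of root hair genes. The 250 bases before the annotated start of each gene, from the RefSeq annotation of TAIR10.1, are printed 5′ to 3′ on the gene's strand, EXPA7 at chr1:4276255-4276504 (plus strand) and EXPA18 at chr1:23331313-23331562 (plus strand), with the RHE match in capitals. These were the only 2 of the 51 members with a match, and 0.76% of 26711 promoters of the same length held one.
EXPA7: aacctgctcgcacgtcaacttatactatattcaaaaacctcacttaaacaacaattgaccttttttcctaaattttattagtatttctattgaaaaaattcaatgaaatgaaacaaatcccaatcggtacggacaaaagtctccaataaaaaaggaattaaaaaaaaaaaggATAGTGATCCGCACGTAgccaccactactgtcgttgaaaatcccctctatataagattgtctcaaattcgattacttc
EXPA18: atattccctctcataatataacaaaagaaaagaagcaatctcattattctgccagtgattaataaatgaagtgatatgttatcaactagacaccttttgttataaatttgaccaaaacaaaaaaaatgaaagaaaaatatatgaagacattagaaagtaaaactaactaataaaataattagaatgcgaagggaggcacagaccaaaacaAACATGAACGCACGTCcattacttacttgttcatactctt

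TEM1 belongs to the RAV family, whose members are known to bind a pair of half-sites, CAACA for the AP2 domain and CACCTG for the B3 domain. The promoters of XTH17 (chr1:24256804-24257053, plus strand), the called XTH gene with the largest fall on the log2 scale, and XTH32 (chr2:15474829-15475078, minus strand), the called XTH gene with the largest rise on that scale, are printed in the same way with these letters, on either strand, in capitals. XTH17 held neither half-site in this window, and XTH32 held the first of them at 2 places, both on the opposite strand and so read here as TGTTG. The first half-site stood in the windows of 16 of the 51 members, 4 of 27 expansins (EXPA1, EXPA7, EXPA8 and EXPA10) and 12 of 24 XTH genes, against 47.3% of all promoters, and the second stood in 0 members and 2.55% of promoters. A match describes the letters of a window and is not a binding site.
XTH17: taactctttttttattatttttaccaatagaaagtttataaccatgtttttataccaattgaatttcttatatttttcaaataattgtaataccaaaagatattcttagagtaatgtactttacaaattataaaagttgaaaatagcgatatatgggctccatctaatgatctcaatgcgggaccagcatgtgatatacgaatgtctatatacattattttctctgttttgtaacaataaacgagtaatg
XTH32: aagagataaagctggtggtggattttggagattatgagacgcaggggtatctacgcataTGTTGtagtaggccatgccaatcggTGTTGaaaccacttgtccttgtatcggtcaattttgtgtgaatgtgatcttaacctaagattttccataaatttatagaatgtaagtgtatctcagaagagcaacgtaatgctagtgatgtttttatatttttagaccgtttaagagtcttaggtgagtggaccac

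Among the EXPA genes, the classical alpha-expansins, the gene with the highest level in WT fell while several genes of middle level rose. EXPA1 (AT1G69530), which is known for its role in guard cells and leaf growth, was at 136.6 and 92.42 RPKM in 35S:TEM1 and at 279.8 and 223.9 in WT. Both 35S:TEM1 samples lay below both WT samples, by 2.2-fold in the mean (115 ± 31.2 against 252 ± 39.5, SD, n = 2 each; log2 difference -1.15 ± 0.20 SE, limma adjusted p = 0.00977). EXPA10 (AT1G26770), an expansin of leaves and petioles, read 51.1 and 46.48 RPKM in the 35S:TEM1 samples and 70.06 and 59.78 in WT, and EXPA5 (AT3G29030), which acts in leaf and stem growth, read 41.12 and 44.25 against 55.63 and 55.45. Neither gene's groups overlapped, and the falls were smaller than that of EXPA1: 1.33-fold for EXPA10 (limma adjusted p = 0.0371) and 1.30-fold for EXPA5 (limma adjusted p = 0.0203). These calls were fragile: the limma adjusted p of EXPA10 was 0.0824 without WT replicate 1, 0.1002 and 0.185 without the first or second 35S:TEM1 sample, and that of EXPA5 was 0.157 and 0.0765, in the same order.

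EXPA15, EXPA4 and EXPA9 had the largest rises on the log2(RPKM + 1) scale, while genes of lower level described further on had larger ratios than some of these. EXPA15 (AT2G03090) was at 75.74 and 69.94 RPKM in 35S:TEM1 and at 17.5 and 20.04 in WT, a 3.88-fold higher mean (72.8 ± 4.10 against 18.8 ± 1.8, SD, n = 2 each; log2 difference 1.90 ± 0.10 SE, limma adjusted p = 0.000255). EXPA4 (AT2G39700) was at 106.3 and 89.47 against 28.79 and 32.17, 3.21-fold higher (97.9 ± 11.9 against 30.5 ± 2.39, SD, n = 2 each; log2 difference 1.65 ± 0.11 SE, limma adjusted p = 0.000513). EXPA9 (AT5G02260) was at 34.35 and 31.38 against 11.24 and 12.97, 2.72-fold higher (limma adjusted p = 0.000742). In all 3 genes the lower 35S:TEM1 sample stood far above the higher WT sample.

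The calls included 4 further EXPA genes that rose by less on the log2(RPKM + 1) scale. EXPA3 (AT2G37640) was at 65.91 and 58.70 RPKM in 35S:TEM1 and 38.58 and 28.74 in WT (1.85-fold, limma adjusted p = 0.00902, and 0.0518 without 35S:TEM1 replicate 1). EXPA16 (AT3G55500) was at 40.22 and 39.09 against 29.71 and 28.15 (1.37-fold, limma adjusted p = 0.0119). EXPA14 (AT5G56320), which is tied to lateral root formation, was at 7.413 and 7.742 against 4.699 and 3.65 (1.82-fold, limma adjusted p = 0.0110). The groups did not overlap in these 3 genes, but the calls of EXPA16 and EXPA14 were lost when either 35S:TEM1 sample was left out, with limma adjusted p between 0.0538 and 0.0946. EXPA20 (AT4G38210) was at 5.944 and 6.015 against 2.13 and 1.487, a 3.31-fold difference with close 35S:TEM1 samples (limma adjusted p = 0.00232). In TAIR10.1, 86.3% of the exon bases of EXPA20 lie under a long non-coding RNA gene on the other strand (AT4G38215), which was listed at 0.156 or less in every sample; since the strand setting of the counting is not given, reads of the 2 genes cannot be told apart.

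EXPA7 and EXPA18 were among the lowest expansins above the read limit. EXPA7 (AT1G12560) was at 1.343 and 1.95 RPKM in 35S:TEM1 and at 0.191 and 0.521 in WT, a 4.62-fold difference (1.65 ± 0.429 against 0.356 ± 0.234, SD, n = 2 each; log2 difference 0.97 ± 0.20 SE, limma adjusted p = 0.0183). EXPA18 (AT1G62980) was at 1.829 and 1.436 against 0.230 and 0.372, a 5.43-fold difference (1.63 ± 0.279 against 0.301 ± 0.101, SD, n = 2 each). Both 35S:TEM1 samples lay above both WT samples for each gene. EXPA7 entered the test with a mean over the 4 samples of 1.001 and EXPA18 missed it with 0.967; without the filter on low values EXPA18 had a log2 difference of 1.02 (limma adjusted p = 0.0100). The WT values rest on an estimated 6.5 and 14.1 reads for EXPA7 and 8.7 and 11.2 for EXPA18, and the call of EXPA7 was lost without 35S:TEM1 replicate 2 (limma adjusted p = 0.0972).

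A list of 10 root hair markers does not hold the 2 expansins. Of these markers 7 lay under the limit of mean RPKM 1, 2 rose and CSLD3, a cellulose synthase-like gene, was not called (limma adjusted p = 0.0567), beside 18.3% of all genes tested called higher. The 2 that rose were PRP3, a root hair wall protein, which rose by 1.42 ± 0.14 SE in log2 (limma adjusted p = 0.00174), and LRX1, a leucine-rich repeat extensin of root hairs, by 1.23 ± 0.18 SE (limma adjusted p = 0.00622). PRP3 read 3.759 and 4.108 RPKM in 35S:TEM1 and 0.7005 and 0.9888 in WT, and LRX1 read 2.047 and 2.266 against 0.1748 and 0.5424. Both had a WT mean under the limit and entered the test only through 35S:TEM1. The share of all genes is therefore no fair background for this count. The summed level of the 10 was 19.76 and 20.43 RPKM in 35S:TEM1 and 10.91 and 12.09 in WT. CSLD3 held 11.49 and 11.83 of these sums in 35S:TEM1 and 9.049 and 9.504 in WT. The sums therefore say little about the list as a whole. The regulators RHD6, RSL1 and RSL4 were each at 0 in 1 WT sample and at 0.0888, 0.0448 and 0.08765 RPKM in the other. In 35S:TEM1 they read 0.106 and 0.257, 0.161 and 0.117, and 0.176 and 0.128. Such levels rest on few reads, and without the filter none was called (limma adjusted p 0.128 to 0.227). Other root markers rose in 5 of the 5 tested of 6, beside 18.3% of all genes tested called higher. The largest rises in log2 were those of PHO1 (1.74), CASP1 (1.19) and NRT2.1 (0.90). Sums of the 6 were 75.83 and 81.29 RPKM in 35S:TEM1 and 35.33 and 36.81 in WT. SCR held the largest part of these sums, with 29.8 and 30.64 in 35S:TEM1 and 18.37 and 17.47 in WT. Leaf epidermis and guard cell markers fell in 3 of 9 (PDF1, FDH and SPCH) and rose in none, beside 7.37% of all genes tested called lower. Without the filter on low values, FDH (limma adjusted p = 0.0771) and SPCH (limma adjusted p = 0.0676) were not called. Calls were also lost when WT replicate 1 or either 35S:TEM1 sample was left out. The sums of these 9 markers were 525.4 and 535.7 in 35S:TEM1 and 766.9 and 629.5 in WT. The part of the root share of the plants in the expansin results was not tested. In RNA from whole plants, a change in the number of cells of a type and a change in RNA per cell cannot be told apart.

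**Figure D2:**
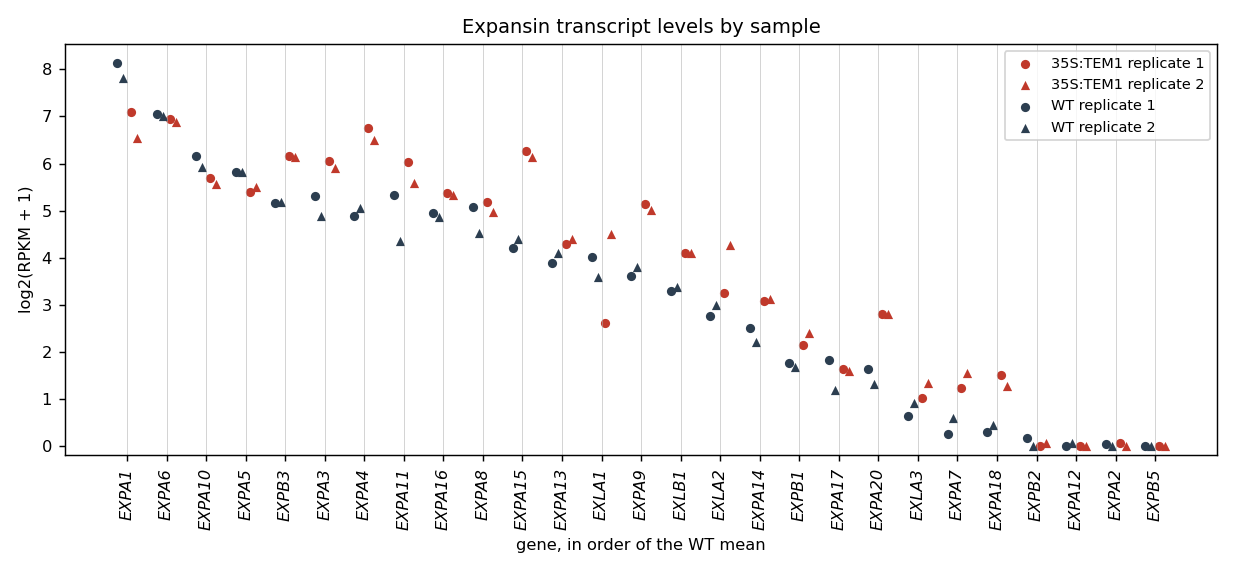
Level of each of the 27 expansins in the 4 samples, as log2(RPKM + 1) on the vertical axis, with genes in order of their WT mean; red marks 35S:TEM1, dark blue marks WT, circles are replicate 1 and triangles replicate 2. EXPA1 leads in WT and falls below its WT level in both 35S:TEM1 samples, while EXPA15, EXPA4, EXPA9 and EXPA20 lie clear above WT, and the replicates of EXLA1 part widely.

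Of the EXPA genes tested and not called, EXPA6 had the highest level. It read 123.0 and 116.8 RPKM in 35S:TEM1 and 131.7 and 128.4 in WT, groups that did not overlap but differed little (log2 difference -0.12 ± 0.07 SE, limma adjusted p = 0.287). EXPA11 read 64.29 and 47.04 against 39.27 and 19.38, also with no overlap, but WT replicate 2 lay far below WT replicate 1 (0.97 ± 0.32 SE, limma adjusted p = 0.0696, and 0.00336 without WT replicate 1). EXPA8 read 35.15 and 30.17 against 32.99 and 21.93, with overlap (limma adjusted p = 0.335). EXPA13 read 18.65 and 20.22 against 13.83 and 16.12, with no overlap (limma adjusted p = 0.0542). EXPA17, known for its role where lateral roots emerge, stood at 1.29 to 2.53 RPKM over the 4 samples with overlap (limma adjusted p = 0.733). EXPA2, an expansin of seed germination, and EXPA12 never exceeded an estimated 1.2 reads in a sample, so no difference was detectable in them at this depth.

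The beta-expansins and expansin-like genes held 3 further rises. EXPB3 (AT4G28250) was at 70.68 and 69.08 RPKM in 35S:TEM1 and at 34.92 and 35.56 in WT, a 1.98-fold difference with almost no spread within either group (69.9 ± 1.13 against 35.2 ± 0.447, SD, n = 2 each; log2 difference 0.97 ± 0.08 SE, limma adjusted p = 0.00079). EXLB1 (AT4G17030) was at 16.14 and 16.06 against 8.841 and 9.437, 1.76-fold higher (limma adjusted p = 0.00297). EXPB1 (AT2G20750) was at 3.43 and 4.255 against 2.42 and 2.215, 1.66-fold higher with no overlap (limma adjusted p = 0.0331). The call of EXPB1 was the least secure of the family: it was lost without any 1 of the 4 samples (limma adjusted p 0.0512 to 0.179), with quantile normalization (0.128) and with samples set to equal medians (0.0792).

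The EXLA genes were set apart by the spread between replicates. EXLA1 read 5.16 and 21.64 RPKM in 35S:TEM1 and 15.25 and 11.1 in WT, so that the 35S:TEM1 samples lay on either side of WT (log2 difference -0.25 ± 0.55 SE, limma adjusted p = 0.766). Leaving out 35S:TEM1 replicate 1 gave 0.69 (limma adjusted p = 0.0864) and leaving out replicate 2 gave -1.19 (limma adjusted p = 0.0193), so no direction is given. EXLA2 read 8.519 and 18.19 against 5.83 and 7.01, with no overlap (0.87 ± 0.31 SE, limma adjusted p = 0.0865). EXLA3, the neighbour of EXLA1 on chromosome 3, stood at 1.027 and 1.525 against 0.558 and 0.898 (limma adjusted p = 0.168). EXPB5 was at 0 in all 4 samples and EXPB2 reached at most an estimated 4.0 reads in 1 sample.

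The make-up of the expansin transcripts differed more than their sum. Summed RPKM over the 27 genes was 916.1 and 835.9 in 35S:TEM1 and 826.8 and 720.6 in WT. The groups did not overlap, but the lower 35S:TEM1 sum and the higher WT sum nearly met. EXPA1 held 33.8% and 31.1% of the sum in WT, and 14.9% and 11.1% in 35S:TEM1. EXPA4 held 3.48% and 4.46% in WT but 11.6% and 10.7% in 35S:TEM1, and EXPA15 held 2.12% and 2.78% but 8.27% and 8.37%. EXPA4 therefore stood at rank 3 in both 35S:TEM1 samples and at ranks 10 and 6 in WT, and EXPA15 at rank 4 in both against ranks 11 and 10. The 3 leading genes of a sample took 39.9% and 35.7% of the sum in 35S:TEM1, and 58.2% and 57.2% in WT.

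**Figure D3:**
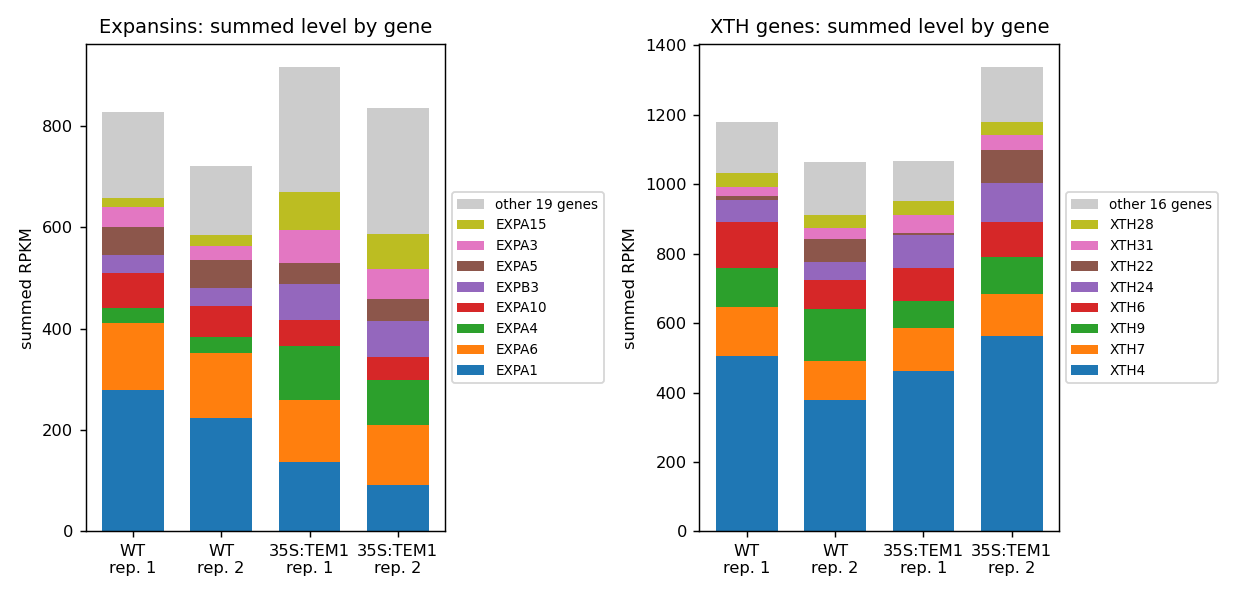
Summed RPKM of the expansins (left) and the XTH genes (right) in each sample, stacked by gene, with the 8 genes of highest mean level in colour and the others in grey. The EXPA1 block, at 279.8 and 223.9 in WT, shrinks to 136.6 and 92.42 with 35S:TEM1 while the EXPA4 and EXPA15 blocks grow, and XTH4 stays the largest XTH block in all 4 samples.

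In the XTH family the genes with the highest level were not called. XTH4 (AT2G06850), an enzyme of expanding tissue and young wood, read 462.9 and 562.1 RPKM in 35S:TEM1 and 504.4 and 379.5 in WT, and held the top rank in every sample with 35.7% to 43.4% of the family sum (log2 difference 0.22 ± 0.16 SE, limma adjusted p = 0.335). XTH7 read 122.1 and 122.2 against 141.9 and 111.1 (limma adjusted p = 0.832), and XTH6 read 93.62 and 100.2 against 132.8 and 83.4 (limma adjusted p = 0.695). WT samples enclosed the 35S:TEM1 samples for XTH6 and XTH7, and the groups overlapped for XTH4. XTH9, an enzyme of shoot apices, read 79.89 and 107.5 against 112.1 and 149.9, with no overlap (-0.48 ± 0.18 SE, limma adjusted p = 0.104). XTH28 read 39.77 and 37.3 against 38.16 and 37.55 (0.02 ± 0.08 SE, limma adjusted p = 0.845), the closest match between genotypes among the family's strongly expressed genes. Summed over the 24 genes, the XTH level was 1066 and 1337 in 35S:TEM1 and 1180 and 1065 in WT, with overlap.

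In the older grouping of the family by sequence, the remaining members of group I, XTH5 and XTH8, were called in opposite directions. XTH5 (AT5G13870) was at 3.239 and 3.126 RPKM in 35S:TEM1 and at 1.983 and 1.875 in WT, a 1.65-fold rise (limma adjusted p = 0.0263). XTH8 (AT1G11545) was at 23.9 and 26.34 against 32.92 and 30.56, a 1.26-fold fall (limma adjusted p = 0.0464). Neither gene's groups overlapped. XTH8 lost its call without any 1 of the samples (limma adjusted p 0.0504 to 0.267). XTH5 lost it without WT replicate 2 (0.0682), without 35S:TEM1 replicate 1 (0.142) or 2 (0.113), with quantile normalization (0.105) and with samples set to equal medians (0.0552).

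Group II held the steepest fall of either family. XTH17 (AT1G65310), an enzyme described in roots and in the shade response of shoots, was at 0.567 and 0.857 RPKM in 35S:TEM1 and at 10.15 and 12.56 in WT. The 2 groups were far apart, with a 15.9-fold lower mean in 35S:TEM1 (0.712 ± 0.205 against 11.4 ± 1.70, SD, n = 2 each; log2 difference -2.85 ± 0.15 SE, limma adjusted p = 0.00028). An estimated 14.2 and 29.7 reads stood behind the 35S:TEM1 values and 384.3 and 377.1 behind those of WT. XTH19 (AT4G30290), a close relative, was at 0.659 and 0.830 against 1.633 and 2.683, 2.90-fold lower with no overlap (0.745 ± 0.120 against 2.16 ± 0.742, SD, n = 2 each; limma adjusted p = 0.0270). Its call was lost without WT replicate 2 (limma adjusted p = 0.0750) and without 35S:TEM1 replicate 1 (0.118) or 2 (0.0748). XTH18, another close relative, was at 1.087 and 2.711 against 1.192 and 2.569, with a difference of -0.01 ± 0.33 SE (limma adjusted p = 0.99).

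XTH17 lies on chromosome 1, and XTH18 and XTH19 are neighbours on chromosome 4 with no other protein-coding gene between them. How alike the 3 genes are is seen in 75 coding bases around the catalytic site, printed 5′ to 3′ from TAIR10.1: XTH17 at chr1:24257658-24257732 (plus strand), XTH18 at chr4:14826545-14826619 (minus strand) and XTH19 at chr4:14829537-14829611 (minus strand). Capitals mark the bases that differ from XTH17, 6 in XTH18 and 5 in XTH19.
XTH17: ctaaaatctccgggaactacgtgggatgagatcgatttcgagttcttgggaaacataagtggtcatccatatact
XTH18: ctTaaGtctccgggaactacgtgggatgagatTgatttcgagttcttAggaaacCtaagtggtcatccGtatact
XTH19: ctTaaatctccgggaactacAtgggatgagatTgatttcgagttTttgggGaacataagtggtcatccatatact

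Of all 50-base stretches of the exons, 0.182% in XTH17, 1.70% in XTH18 and 1.77% in XTH19 also occurred elsewhere in the nuclear genome, and 43 of the 51 members had none. The read length is not given in the sources used here, and shorter reads would share more, so reads misplaced between these genes were not tested. XTH24 (AT4G30270), the next gene beside XTH18, went the other way from XTH17 and XTH19: it was at 94.66 and 111.7 RPKM in 35S:TEM1 and at 61.98 and 51.72 in WT, 1.81-fold higher with no overlap (103 ± 12.03 against 56.8 ± 7.25, SD, n = 2 each; log2 difference 0.85 ± 0.12 SE, limma adjusted p = 0.00569). XTH24 stood at rank 3 in the family in both 35S:TEM1 samples, and at ranks 5 and 6 in WT.

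The other members of group II were not called or lay under the limit. XTH22 (AT5G57560), known as TCH4 and induced by touch, read 6.912 and 95.02 RPKM in 35S:TEM1 and 12.43 and 67.29 in WT. The samples split by replicate number and not by genotype: replicate 2 exceeded replicate 1 by 3.60 in log2 in 35S:TEM1 and by 2.35 in WT, each larger in size than for 99.98% of all genes tested, while the genotypes differed by -0.14 ± 1.23 SE (limma adjusted p = 0.946). XTH23 read 1.054 and 5.057 against 4.378 and 6.361, with 35S:TEM1 replicate 2 higher than replicate 1 by 1.56 in log2 (limma adjusted p = 0.237). XTH15 and XTH16 stood at 4.08 to 8.37 and at 20.0 to 38.27 RPKM over the samples (limma adjusted p = 0.147 and 0.758). For XTH15, 31.6% of the exon bases are overlapped on the other strand by AT4G14120, which was at 1.69 to 2.04 RPKM.

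**Figure D4:**
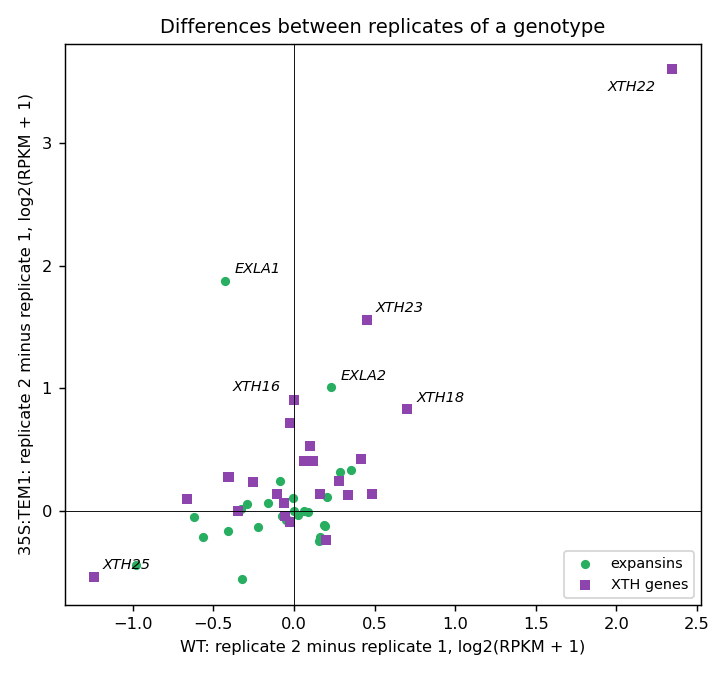
Replicate 2 minus replicate 1 in log2(RPKM + 1) within WT (horizontal) and within 35S:TEM1 (vertical) for the 51 genes, expansins as green circles and XTH genes as purple squares. Most points lie near the origin; XTH22 lies alone at 2.35 and 3.60, and EXLA1, XTH23 and EXLA2 lie high in 35S:TEM1 only.

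XTH20, XTH21, XTH25 and XTH26 had a mean RPKM under 1. XTH21, an enzyme of roots, was at 0.468 and 0.943 RPKM in 35S:TEM1 and at 0 and 0.0869 in WT, an estimated 11.3 and 31.4 reads against 0 and 2.5; without the filter its log2 difference was 0.70 (limma adjusted p = 0.0376). In XTH21, 7.82% of the 50-base stretches also occurred in another gene, AT2G12660. XTH20 stood at 0.469 to 0.849 and XTH25 at 0.117 to 1.645, both with overlap, and XTH26 reached at most an estimated 4.3 reads.

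Group III, which includes the members known or predicted to hydrolyse xyloglucan, held 2 rises and 1 fall. XTH32 (AT2G36870) was at 30.39 and 31.9 RPKM in 35S:TEM1 and at 11.55 and 11.02 in WT, a 2.76-fold rise with tight replicates (31.1 ± 1.07 against 11.3 ± 0.374, SD, n = 2 each; log2 difference 1.39 ± 0.09 SE, limma adjusted p = 0.000387). XTH31 (AT3G44990), its closest relative and an enzyme with hydrolase activity, was at 50.52 and 42.77 against 27.68 and 31.89, 1.57-fold higher with no overlap (46.6 ± 5.48 against 29.8 ± 2.98, SD, n = 2 each; limma adjusted p = 0.0124, and 0.0783 without 35S:TEM1 replicate 1). XTH33 (AT1G10550), a member predicted to be anchored in the plasma membrane, was at 0.186 and 0.438 against 4.124 and 2.87. It was 11.2-fold lower with no overlap (0.312 ± 0.178 against 3.50 ± 0.886, SD, n = 2 each; log2 difference -1.77 ± 0.19 SE, limma adjusted p = 0.00229), on an estimated 4.5 and 14.7 reads in 35S:TEM1. XTH27, an enzyme of leaf veins, read 26.44 and 35.44 against 40.64 and 42.53 (limma adjusted p = 0.0700), and XTH30 read 1.795 and 3.022 against 3.218 and 3.513 (limma adjusted p = 0.189), neither with overlap.

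**Figure D5:**
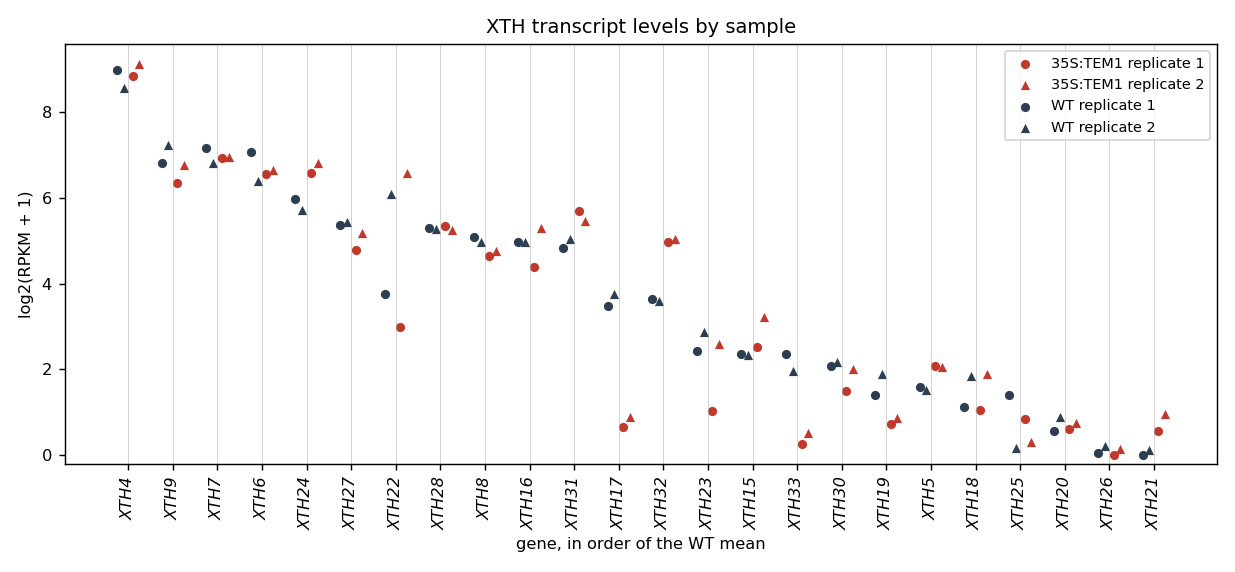
Level of each of the 24 XTH genes in the 4 samples, as log2(RPKM + 1) on the vertical axis, with genes in order of their WT mean and symbols as in the plot of expansin levels. XTH17 and XTH33 drop far below WT, XTH24, XTH31 and XTH32 lie above WT, and the circles and triangles of XTH22 part within both genotypes.

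Other genes of the wall were counted in lists, to be read beside the 18.3% higher and 7.37% lower of all genes tested. Of 13 xyloglucan synthesis genes 3 rose and 2 fell, with a median difference of 0.12: the glucan synthase CSLC5 (0.35), the galactosyltransferase MUR3 (0.37) and the fucosyltransferase FUT1 (0.40) rose, while the glucan synthase CSLC4 (-0.42) and the galactosyltransferase XLT2 (-0.45) fell. The 3 rises became 0 with equal sample medians, with quantile normalization, without WT replicate 2 and without either 35S:TEM1 sample, and the median became -0.037 with equal medians. Of the 2 falls, 1 was left without WT replicate 1 or 2 and 0 without 35S:TEM1 replicate 1. Of 3 xyloglucan trimming enzymes FUC95A rose (0.50) and the other two were not called. Of 9 tested primary wall cellulose genes of 10, 1 rose, CC1 (0.42), and none fell. The 3 secondary wall cellulose synthase genes were not called by limma, though all 3 had an unadjusted p under 0.05, with a median of 0.40. Of 5 tested pectin remodelling genes of 14, 1 fell, PME5 (-0.50). Of 6 tested plasma membrane proton pumps of 11, AHA2 rose (0.42), AHA3 fell (-0.41) and 4 were not called. Markers of dividing cells gave no limma call among 6 (2 with an unadjusted p under 0.05), and xylem markers gave 1 rise among 5 tested of 6, LAC4 (0.42). These single calls were also unstable: FUC95A and CC1 left their lists with 0 rises without 35S:TEM1 replicate 2, and the pectin, proton pump and xylem lists had 0 such calls without either 35S:TEM1 sample. With equal sample medians, the cellulose, proton pump and xylem lists had 0 rises. Leaving out WT replicate 1 gave 5 rises in the primary wall cellulose list and 0 in the xylem list, and leaving out WT replicate 2 gave 0 falls among the proton pumps.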

How the data were processed

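The authors deposited 1 RPKM value per locus and sample for 32678 loci and 4 samples (2 per genotype), and 0 value columns belonged to other samples. Tools named in the submitters' processing notes were STAR, Cuffdiff 2.2.1, FastQC and bcl2fastq 1.8.4, with TAIR10 as the build; their roles are not stated. How reads were counted, on which annotation and with which strand setting is not given in the sources used here.

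From these values, log2(RPKM + 1) was fitted with limma 3.58.1 (R 4.3.3, trended variance, genes with a mean RPKM of at least 1 over the 4 samples), with Benjamini-Hochberg adjustment over all genes tested, 2-sided. The procedure was tested on simulated data with noise drawn independently for each sample, so differences shared by same-numbered replicates were not covered. Depth and reads per gene were estimated from the steps between low values and RefSeq exon lengths; whole reads could not be recovered (of values below 50 reads, 31.3% to 33.5% were whole numbers to within 0.05), so no count test was run. Deposited values carry locus identifiers and no coordinates; sequences and coordinates are from RefSeq, TAIR10.1, in which 51 of 51 members matched. Every member was accounted for: called members and the 6 uncalled members of highest mean in each family with their values, members under the limit by their values, and the others by their values or range. In other lists, up to 3 called genes in each direction were named. CSLD3, RHD6, RSL1, RSL4 and SCR were added after their values were seen. The members and lists were chosen with earlier results of these data known. Alternatives varied the pseudocount (0.1, 0.25), the filter, the scaling, the variance model, the replicate block and each sample in turn.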

Additional observations from a re-analysis of the deposited data

How the results depend on the processing

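Calls held in all 13 alternatives for 5 of the 11 expansins that rose (EXPA4, EXPA9, EXPA15, EXPB3, EXLB1), 1 of the 3 that fell (EXPA1), 2 of the 4 XTH genes that rose (XTH24, XTH32) and 1 of the 4 that fell (XTH17). EXPA20 and XTH33 lost theirs only where a mean RPKM of at least 5 left them untested. Leaving out 1 sample at a time gave 7 to 12 higher and 1 to 3 lower expansins with medians of 0.44 to 0.72, and 2 to 5 lower XTH genes; over all genes it gave 1331 to 2955 higher and 545 to 1417 lower. A lone sample was then assumed to vary like the other genotype. The expansin median was 0.78 with a pseudocount of 0.1, 0.49 with no filter, 0.47 with quantile normalization and 0.51 with equal sample medians. Lower XTH genes numbered 2 at a mean RPKM of at least 5. The median of all genes was 0.083 with no filter, -0.028 with equal medians and -0.014 with quantile normalization. With equal medians 1930 genes were higher and 2431 lower, and with quantile normalization 2021 were higher and 1862 lower, which moved the share of higher among called genes from 71.3% to 44.3% and 52.0%. For the XTH genes that share moved from 50% to 37.5% (3 higher, 5 lower) and 42.9% (3 higher, 4 lower). With the replicate block, 14 expansins were higher and 3 lower, 4 XTH genes were higher and 7 lower, and 4321 genes were higher and 1801 lower over all; EXPA11, EXPA13 and EXLA2 (higher) and XTH9, XTH23 and XTH27 (lower) were added. The labels do not say that a number marks a shared batch or day, and deviations of same-numbered samples correlated at 0.318 over genes, in 2 pairs only. Uncalled members that changed sign with a scaling were EXPA17 (-0.069 with quantile normalization) and XTH28 (-0.14 with equal medians, -0.047 with quantile normalization). Those that changed sign as samples were left out in turn ranged from -0.018 to 0.55 for EXPA8, -0.20 to 0.42 for EXPA17, -1.19 to 0.69 for EXLA1, -0.45 to 0.21 for XTH6, -0.21 to 0.13 for XTH7, -0.58 to 0.33 for XTH16, -0.42 to 0.41 for XTH18, -1.94 to 1.66 for XTH22 and -0.021 to 0.069 for XTH28. The cause of these changes was not tested. With 2 samples per genotype, no sample could be tested for standing apart from its group.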

Other observations

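TCH2 and TCH3, other touch-induced genes, were looked up after the values of XTH22 (TCH4) had been seen. TCH2, a calmodulin-like gene, read 15.78 and 66.29 RPKM in 35S:TEM1 and 19.14 and 43.7 in WT, higher in replicate 2 of both genotypes by 2.004 and 1.15 in log2. TCH3, another calmodulin-like gene, read 14.47 and 22.63 against 53.48 and 72.99, with replicate differences of 0.61 and 0.44 and a genotype difference of -1.73 ± 0.23 SE (limma adjusted p = 0.00412). Of the 17746 genes tested, 38 were higher in replicate 2 of both genotypes by at least 1 in log2 and 1 was lower, and XTH22 was 1 of 8 that were higher by at least 2. What set the replicates apart was not tested.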
